A study of Homo sapiens with 6 samples.

Results

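The Ikaros family comprises 5 genes, IKZF1, IKZF2, IKZF3, IKZF4 and IKZF5, and all 5 were found among the 58233 gene identifiers of the count table by their symbols. Messenger RNA was sequenced from OCI-AML2, a cell line long grown from a human acute myeloid leukemia. The study compared 3 libraries of the genotype IKZF1-ko, from cells in which IKZF1 had been targeted by CRISPR, with 3 libraries of the genotype NT control, from cells with a non-targeting control. The labels give no drug treatment, time point or guide sequence for either group. Each group is described as 3 lines in the series text, but the protocol for RNA names triplicates of parental and knockout cells. Neither says whether a line was a clone or a pool of edited cells, so the p-values reflect only how far these libraries differ from each other, which may be a technical spread.

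Ikaros family proteins are zinc-finger transcription factors of blood cells. Fingers near the amino end bind DNA, in Ikaros at sites with the core GGGAA, and fingers at the carboxyl end let the proteins pair with themselves and with each other. They recruit chromatin complexes, above all the NuRD deacetylase complex, and can repress or activate a gene. Ikaros (IKZF1) is needed for lymphoid development, and its gene is often deleted in B-cell acute lymphoblastic leukemia. Helios (IKZF2) and Aiolos (IKZF3) are known mainly from lymphoid cells, Eos (IKZF4) from regulatory T cells, and Pegasus (IKZF5) is the most divergent member. Thalidomide analogs direct the ubiquitin ligase subunit cereblon to Ikaros and Aiolos, which are then degraded.

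Because the targeted gene encodes a factor that can bind the GGGAA core, the bases before 4 of the annotated starts of IKZF1, IKZF4 and IKZF5 are shown, with each GGGAA or its reverse complement TTCCC in capitals. They are RefSeq promoters on GRCh38.p14, written 5′ to 3′ on the strand of the gene and limited to bases outside the GENCODE exons of that gene. The table of promoters held 10 windows for 4 of the 5 members, and IKZF3 had no entry.
IKZF1, first start (chr7:50304466-50304668, plus strand): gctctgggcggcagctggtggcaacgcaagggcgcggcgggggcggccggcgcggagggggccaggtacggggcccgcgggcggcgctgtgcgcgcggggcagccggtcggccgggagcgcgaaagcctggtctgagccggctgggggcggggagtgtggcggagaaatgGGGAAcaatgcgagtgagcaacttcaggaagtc
IKZF1, second start (chr7:50308450-50308679, plus strand): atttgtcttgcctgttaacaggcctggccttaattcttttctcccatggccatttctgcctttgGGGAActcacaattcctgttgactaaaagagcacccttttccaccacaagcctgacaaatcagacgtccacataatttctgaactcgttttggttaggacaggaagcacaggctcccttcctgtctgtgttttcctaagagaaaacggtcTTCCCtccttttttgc
IKZF4, first start (chr12:56007254-56007503, plus strand): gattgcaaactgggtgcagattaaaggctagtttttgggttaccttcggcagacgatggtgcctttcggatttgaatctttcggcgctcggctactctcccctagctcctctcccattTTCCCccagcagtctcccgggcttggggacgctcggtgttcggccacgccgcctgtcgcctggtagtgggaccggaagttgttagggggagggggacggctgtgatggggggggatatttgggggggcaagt
IKZF5, farther upstream start (chr10:123008818-123009045, minus strand): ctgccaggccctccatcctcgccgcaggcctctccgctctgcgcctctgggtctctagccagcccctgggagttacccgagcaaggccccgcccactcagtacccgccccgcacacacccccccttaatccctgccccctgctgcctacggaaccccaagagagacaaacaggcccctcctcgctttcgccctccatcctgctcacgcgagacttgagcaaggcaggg

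In the full 250 bases before the first IKZF1 start, GGGAA occurred 2 times, of which 1 lay in the longer motif TGGGAA. The 250 bases before the second IKZF1 start held 1 GGGAA and 1 TTCCC, and those before its remaining start held neither. The window before the first IKZF4 start held 1 TTCCC. Those before its other starts, which overlap each other and are not printed, held 2 GGGAA in one case and 1 GGGAA with 2 TTCCC in the other. Each of the overlapping IKZF5 windows held 1 GGGAA, not wholly within the bases outside exons, and both IKZF2 windows held neither. Such matches are common: GGGAA or TTCCC was present in 59.0% of all 35116 promoter windows of this length, and TGGGAA or its reverse complement TTCCCA, which contain the shorter letters, in 20.8%. A match describes the letters of the window and is not a measured binding site.

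The 6 libraries held 11300519 to 18214328 counts. NT control replicate 2 and IKZF1-ko replicate 1 stood apart from the other 4 libraries on the first principal component, which held 67.6% of the variance and cut across the groups. These libraries are called the smaller set and the other 4 (NT control replicates 1 and 3, IKZF1-ko replicates 2 and 3) the larger set. No label names what they share. Each comparison is therefore given from 3 fits of edgeR's quasi-likelihood test over all genes with Benjamini-Hochberg adjustment: on group only, with a term for the library set (the library-set term), and within the larger set alone, 2 against 2. Depth went with group in the larger set, where the IKZF1-ko libraries were the deeper ones. Of 15 myeloid marker genes 12 passed the filter on low counts, with summed levels of 2479 to 4165 CPM (counts relative to a fixed library total, with TMM factors) in NT control and 2866 to 4354 CPM in IKZF1-ko. With the library-set term 5 of these 12 rose and 1 fell, so that 50% were called against 13.5% of all genes, and their part in the results on the family was not tested. Markers of B cells summed to 14.1 to 18.7 CPM in any library and those of T and NK cells to 6.21 to 10.6 CPM. Those of red cells and megakaryocytes summed to 11.6 to 23.4 CPM. At 0 in every library were 5 of 10 B-cell markers, 7 of 12 T and NK cell markers and 6 of 10 red cell and megakaryocyte markers.

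The members differed widely in level: IKZF1 was abundant, IKZF5 and IKZF4 were present at lower levels, and IKZF3 and IKZF2 were at or near 0. IKZF1, IKZF4 and IKZF5 passed the filter on low counts, so 3 of the 5 members were tested. Levels of different genes were compared as CPM per kilobase of exon, with the union of all annotated exons as the length. On this scale IKZF1 was at 29.2 ± 2.17 in NT control and 39.1 ± 0.701 in IKZF1-ko (SD, n = 3 each). Over the 6 libraries its level ranked 1156 from the top among 13006 genes with a length. IKZF5 was at 8.37 ± 0.461 and 7.92 ± 0.510 CPM per kilobase, above 60.7% of those genes. IKZF4 was at 3.30 ± 0.742 and 3.58 ± 0.294 CPM per kilobase, above 38.0% of them.

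The ranges of these 3 genes did not overlap on that scale: the lowest IKZF1 library stood at 26.7, IKZF5 libraries lay between 7.38 and 8.78, and the highest IKZF4 library stood at 4.11 CPM per kilobase. The group mean of IKZF1 was 3.49 times that of IKZF5 in NT control and 4.94 times in IKZF1-ko. Against IKZF4 it was 8.84 times in NT control and 10.9 times in IKZF1-ko. Exon unions include exons that these cells may not use, which lowers the values of genes with many annotated exons, and the order of the members rests on that length.

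**Figure D1:**
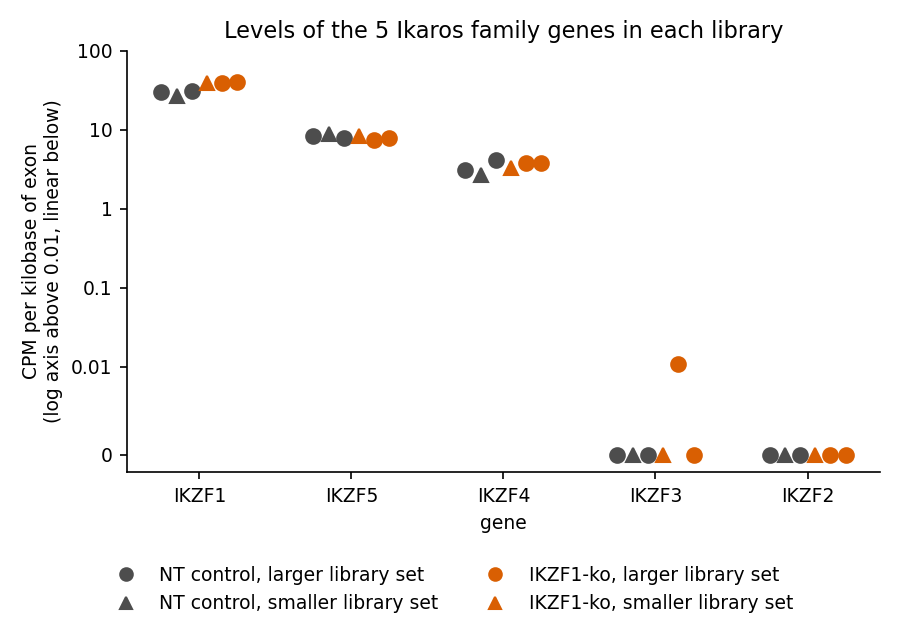
Level of each Ikaros family gene in each library, in CPM per kilobase of exon on an axis that is logarithmic above 0.01 and linear below, with circles for the larger and triangles for the smaller library set. IKZF1 lies at 26.7 or higher in every library, IKZF5 and IKZF4 lie between 2.66 and 8.78, and IKZF3 and IKZF2 are at 0 except for IKZF3 in IKZF1-ko replicate 2.

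IKZF1 (ENSG00000185811, GRCh38 chromosome 7, 50304068 to 50405101, plus strand) was higher, not lower, in every library labelled IKZF1-ko. NT control replicates 1, 2 and 3 had 3904, 4271 and 3818 IKZF1 counts, or 331, 292 and 334 CPM. IKZF1-ko replicates 1, 2 and 3 had 6301, 7804 and 7377 counts, or 421, 426 and 436 CPM. NT control replicate 2, of the smaller set, was the lowest library, the 3 IKZF1-ko libraries lay close together, and the groups did not overlap. Groups that do not overlap with IKZF1-ko higher were found for 5.28% of the 13028 tested genes, and in either direction for 9.35%. Exact 95% Poisson intervals, which cover counting error only, ran from 283 to 345 CPM over the NT control libraries and from 411 to 446 CPM over the IKZF1-ko libraries. In a bulk library, more cells with a transcript and more of it per cell cannot be told apart.

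On group alone the log2 fold change of IKZF1 was 0.42 (SE 0.099, 95% interval 0.19 to 0.66), with an unadjusted p of 0.004 and an edgeR adjusted p of 0.606. That fit called 0 of 13028 genes, or 0%, and 456 genes (3.5%) had an unadjusted p under 0.05. On the same design DESeq2 called 71 genes, IKZF1 among them (adjusted p = 0.032), limma-voom called 1, and edgeR called 8 when no genes were filtered out. With the library-set term IKZF1 rose 1.34-fold (log2 fold change 0.43, 95% interval 0.33 to 0.53, edgeR adjusted p = 1.23e-05). That fit called 13.5% of all genes, with 6.93% of the tested genes higher and 6.62% lower in IKZF1-ko, and IKZF1 ranked 368 by fold among the 903 genes called higher. Within the larger set alone it rose 1.30-fold (log2 fold change 0.37, interval 0.29 to 0.46, adjusted p = 1.07e-07), where 14.7% of all genes were called, 7.64% higher and 7.1% lower. As the library sets were found in the same counts, the p-values of these fits take the sets as known.

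The difference was present in each library set. In the larger set IKZF1 was higher in IKZF1-ko by 0.37 on the log2 CPM scale, and in the smaller set, with 1 library a group and no test, by 0.53. The interaction of set and group for IKZF1 was 0.16 on the log2 scale with an unadjusted p of 0.0376 and an edgeR adjusted p of 0.28. That test called 2.26% of all genes, and its spread comes from the larger set. By the exact permutation test over the 6 samples, two-sided, the CPM difference of 109 gave p = 0.1, the smallest that 3 against 3 allows. Counts per gene show neither an edited sequence nor the protein, so the level of IKZF1 does not check the labels, and each direction given here is that of the libraries so labelled.

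**Figure D2:**
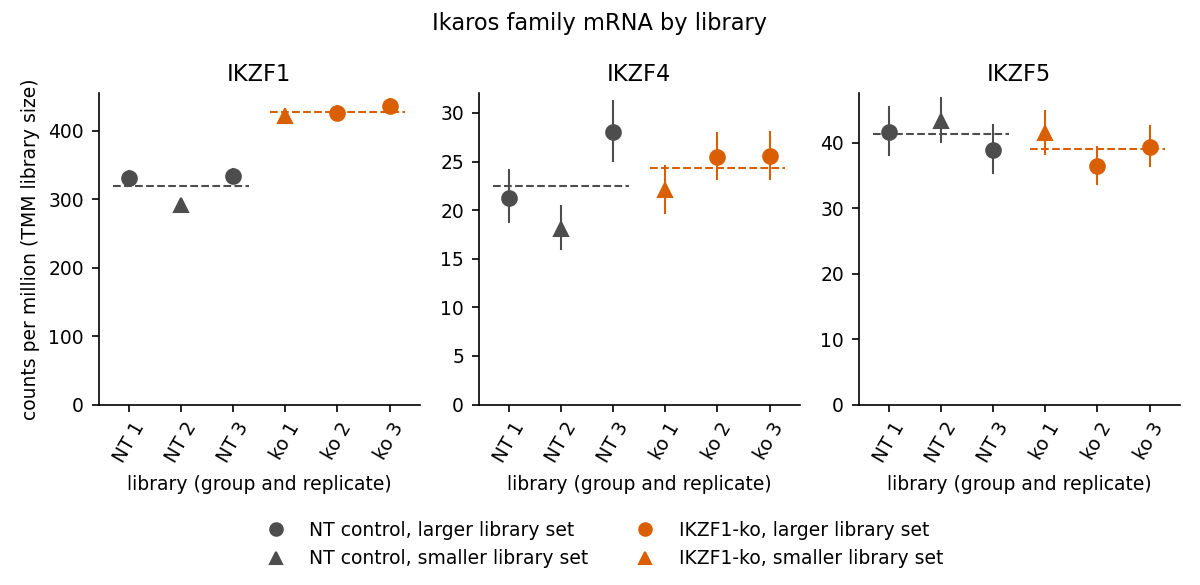
CPM of IKZF1, IKZF4 and IKZF5 in each of the 6 libraries on axes that start at 0, with exact 95% Poisson intervals as vertical lines, group means as dashed lines, and circles and triangles for the larger and smaller library sets. The 3 IKZF1-ko libraries stand above the 3 NT control libraries for IKZF1, whereas the groups overlap for IKZF4 and IKZF5.

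IKZF4 (ENSG00000123411, chromosome 12, 56007659 to 56038435, plus strand), which encodes Eos, overlapped between the groups. It had 251, 265 and 320 counts in NT control replicates 1, 2 and 3, or 21.3, 18.1 and 28.0 CPM. In IKZF1-ko replicates 1, 2 and 3 it had 330, 467 and 432 counts, or 22.1, 25.5 and 25.5 CPM. Both the lowest and the highest library were NT control libraries. Its log2 fold change was 0.12 on group alone (95% interval -0.32 to 0.55), 0.13 with the library-set term (-0.08 to 0.33) and 0.05 in the larger set (-0.16 to 0.26). The edgeR adjusted p was 1, 0.456 and 0.806 in these fits, so IKZF4 did not pass the test, and with the library-set term the interval left room for a rise of up to 1.26-fold.

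IKZF5 (ENSG00000095574, chromosome 10, 122990806 to 123008817, minus strand), which encodes Pegasus, also overlapped. NT control replicates 1, 2 and 3 had 491, 635 and 444 counts, or 41.7, 43.3 and 38.8 CPM, and the IKZF1-ko replicates had 620, 667 and 666 counts, or 41.4, 36.4 and 39.4 CPM. In both groups the library of the smaller set was the highest. The log2 fold change was -0.08 on group alone (95% interval -0.33 to 0.17), -0.08 with the library-set term (-0.22 to 0.06) and -0.09 in the larger set (-0.25 to 0.07). IKZF5 did not pass in any of them (edgeR adjusted p 1, 0.492 and 0.508), and with the library-set term the interval ran from 0.856 to 1.05 times the NT control level.

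**Figure D3:**
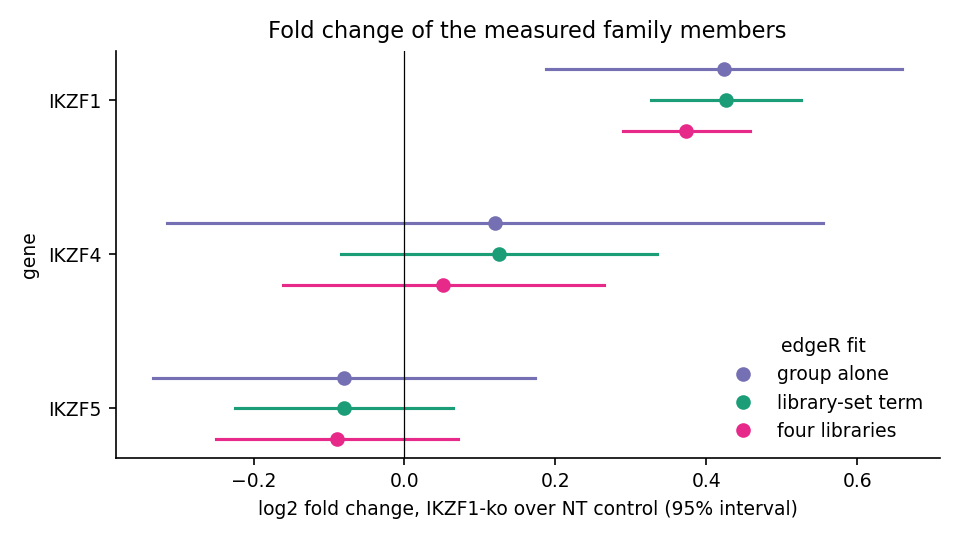
Log2 fold change of the 3 tested members, IKZF1-ko over NT control, with 95% intervals from edgeR fitted on group alone, on group with the library-set term, and in the 4 libraries of the larger set. The intervals of IKZF1 lie above 0 in all 3 fits, from 0.19 at the lowest, and those of IKZF4 and IKZF5 include 0.

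IKZF2 (ENSG00000030419, chromosome 2, 212999691 to 213152427, minus strand), the gene of Helios, had 0 counts in all 6 libraries. A count of 0 allows up to 0.164 to 0.262 CPM, depending on the library, at a floor of 3 counts. Taken over a group, the floor was 0.0792 CPM for NT control and 0.0598 CPM for IKZF1-ko. Per kilobase, IKZF1 was thus at least 4508-fold higher than IKZF2 in NT control and at least 8015-fold higher in IKZF1-ko. IKZF3 (ENSG00000161405, chromosome 17, 39757715 to 39864188, minus strand), the gene of Aiolos, had 0 counts in 5 libraries and 2 counts in IKZF1-ko replicate 2, or 0.109 CPM (exact 95% Poisson interval 0.0132 to 0.394). Per kilobase IKZF1 was at least 3686-fold higher than IKZF3 in NT control. Fitted on group alone without a filter, IKZF3 had an edgeR adjusted p of 0.991 among 22993 genes. A rise of the lymphoid members in the IKZF1-ko libraries was not detectable above these floors.

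The ratio of 2 members within a library does not depend on how libraries are scaled, and was used to set the IKZF1 difference against its relatives. The log2 ratio of IKZF1 to IKZF5 counts was 2.99, 2.75 and 3.10 in NT control replicates 1, 2 and 3. In IKZF1-ko replicates 1, 2 and 3 it was 3.35, 3.55 and 3.47, above every NT control library. Its mean was 2.95 ± 0.181 in NT control and 3.45 ± 0.102 in IKZF1-ko (SD, n = 3 each), a difference of 0.51 or 1.42-fold. Against IKZF4 the log2 ratio was 3.85 ± 0.237 and 4.14 ± 0.103, a difference of 0.29. Its groups did not overlap either, but IKZF1-ko replicate 2 at 4.06 lay close to NT control replicate 2 at 4.01. For both ratios the exact two-sided permutation p was 0.1, the smallest possible here, and 0.175 after adjustment over 7 such values. The ratio of IKZF4 to IKZF5 overlapped between the groups (exact permutation p = 0.5).

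IKZF1 held most of the family's counts. Its share was 84.0%, 82.6% and 83.3% in replicates 1, 2 and 3 of NT control and 86.9%, 87.3% and 87.0% in the IKZF1-ko replicates. The mean rose by 3.76 percentage points with no overlap (exact permutation p = 0.1). IKZF5 held 9.69% to 12.3% of family counts in NT control and 7.46% to 8.55% in IKZF1-ko, and IKZF4 held 5.12% to 6.98% and 4.55% to 5.22%. These shares are of counts, not per length, and they sum to the whole, so a higher share of IKZF1 lowers the others.

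**Figure D4:**
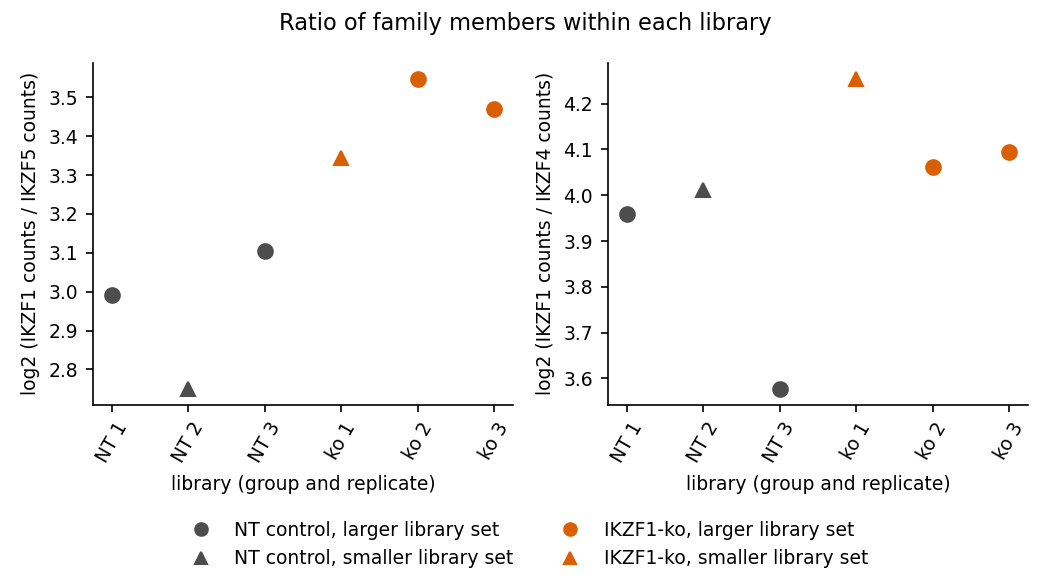
Log2 ratio of IKZF1 counts to IKZF5 counts (left) and to IKZF4 counts (right) in each library, on axes that do not start at 0, with circles for the larger and triangles for the smaller library set. The IKZF1-ko libraries lie above the NT control libraries in both panels, by a narrow margin for IKZF4.

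Exons of other genes cover little of the members. An antisense gene, ENSG00000285165, shares 110 bases with IKZF1 exons, or 1.01% of them, and is not a row of the count table. PSTK, a gene on the opposite strand that encodes a kinase of selenocysteine synthesis, shares 81 bases or 1.64% of the IKZF5 exons, and had 31 to 50 counts per library (2.94 ± 0.719 CPM in the controls, 2.54 ± 0.409 CPM in IKZF1-ko). IKZF2, IKZF3 and IKZF4 share no exon base with another annotated gene. Within 500 kb of IKZF1 on either side lie 16 annotated genes, 15 of them in the table and 2 above the filter. FIGNL1, a gene of DNA repair, was at 44.5, 24.3 and 45.4 CPM in NT control replicates 1, 2 and 3 and at 37.8, 43.1 and 46.4 CPM in IKZF1-ko, with overlapping groups. It did not pass the test (log2 fold change 0.19, edgeR adjusted p = 0.236 with the library-set term, and -0.01 in the larger set). GRB10, which encodes an adaptor of insulin receptor signaling, was at 69.4 ± 3.75 and 66.0 ± 12.8 CPM and did not pass either (-0.09, adjusted p = 0.477). The other 13 neighbours had at most 4 counts in any library.

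The genes whose log2 CPM followed IKZF1 most closely over the 6 libraries were MBOAT2, CBL, CAMK1D, MARVELD1 and SDC2. Their Pearson r with IKZF1 ran from 0.990 to 0.994, and 35 of 9140 genes with at least 10 CPM had an r above 0.95. With so few libraries, 1 difference between the groups can give such an r, and all genes share the same libraries. CAMK1D, a calcium-dependent kinase gene, was at 25.3, 22.2 and 27.1 CPM in NT control replicates 1, 2 and 3 and at 38.2, 41.2 and 42.0 CPM in IKZF1-ko. CBL, which encodes a ubiquitin ligase of receptor tyrosine kinases, was at 225, 219 and 229 CPM in the NT control libraries and at 253, 252 and 256 CPM in the others. MBOAT2, an acyltransferase gene, was at 37.7 ± 3.27 and 48.9 ± 0.487 CPM, MARVELD1 at 77.3 ± 3.71 and 107 ± 1.98 CPM, and the syndecan gene SDC2 at 127 ± 10.1 and 163 ± 5.41 CPM. In these 5 genes, as in IKZF1, NT control replicate 2 was the lowest library, which is likely for genes chosen by their likeness over these same libraries. For IKZF4 the closest genes were FANCE, ITCH and ACAD9 (r 0.979 to 0.986), and for IKZF5 they were AP4B1, KATNIP and SLAIN1 (r 0.971 to 0.983).

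Genes of the machinery around Ikaros were followed in 5 lists, in which 61 genes were tested. With the library-set term 14 of them (23.0%) were called, against 13.5% of all genes, and on group alone 0 were called. Of 20 corepressor genes, subunits of the NuRD, SIN3 and CtBP complexes and the SWI/SNF ATPases, 1 rose and 4 fell with the library-set term. That is 25% of the list, against 13.5% of all genes. In the larger set 2 rose and 3 fell, where 14.7% of all genes were called. The median log2 fold change of the list with the library-set term was 0.003, beside 0.002 for all genes. The deacetylase gene HDAC2 rose from 266 ± 10.6 to 296 ± 11.9 CPM (adjusted p = 0.0372). The NuRD subunit genes MTA2 (log2 fold change -0.17) and RBBP7 (-0.16) and the CtBP-interacting gene RBBP8 (-0.26) fell. RBBP8 shares exon positions with a gene on its own strand. The groups overlapped for MTA2, RBBP7 and RBBP8, and MTA2 and RBBP8 were lowest in the libraries of the smaller set. RBBP8 was at 53.7, 28.1 and 55.4 CPM in NT control replicates 1, 2 and 3 and at 20.2, 47.6 and 48.3 CPM in IKZF1-ko. MTA2 and RBBP8 did not pass in the larger set (adjusted p 0.061 and 0.0626). The library-set fit called 1765 of all genes. When 1 surrogate variable replaced the library-set term, 0 of the 20 were called, where 1047 of all genes were called. The count was also 0 without IKZF1-ko replicate 3 (811 of all genes called) and 1 without NT control replicate 1 (948 of all genes). It was 3 without NT control replicate 3 (1246 of all genes), without IKZF1-ko replicate 2 (1443) and with DESeq2 (1159). HDAC2 passed in 9 and RBBP7, RBBP8 and MTA2 each in 10 of 15 alternatives. In such counts, here and below, the fits without NT control replicate 2 or IKZF1-ko replicate 1 repeat the larger-set comparison. The library-set term then fits the library left in the smaller set exactly.

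With the library-set term 10% of 10 genes of the cereblon ubiquitin ligase were called, against 13.5% of all genes: 1 rose and 0 fell. It was the cullin gene CUL4B, with 54.1 ± 10.8 CPM in the controls and 66.3 ± 20.7 CPM in IKZF1-ko, with overlapping groups. Its edgeR adjusted p was 0.0115 with the library-set term and 0.0884 in the larger set. The list had 0 calls without IKZF1-ko replicate 3 (811 of all genes called) and with a surrogate variable (1047 of all genes called). It also had 0 without NT control replicate 2 or IKZF1-ko replicate 1, fits that repeat the larger-set comparison (14.7% of all genes called). With the replicate number as a block it had 5, where 2942 of all genes were called. That block left almost no degrees of freedom to measure the spread. The list median was -0.10. Cereblon itself, CRBN, named here after its values were seen, was at 23.0 ± 4.18 and 23.2 ± 4.91 CPM (edgeR adjusted p = 0.973, log2 fold change 0.01 with an SE of 0.085). Of 13 other genes whose proteins are degraded through cereblon with such drugs, 11 were tested. With the library-set term 9.09% of the 11 were called, against 13.5% of all genes. The median of the 11 was 0.08. Among them only ZMYM2, a zinc-finger gene, was called (0.16, edgeR adjusted p = 0.0407), with overlapping groups. It passed in 7 of 15 alternatives. These did not include any fit without IKZF1-ko replicate 1, 2 or 3 or without NT control replicate 1 or 2. SALL4 had 0 counts in every library.

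Among 8 genes of kinases and phosphatases that act on Ikaros, 2 fell and 0 rose with the library-set term, and the median was 0.05. The calls were 25% of this short list, against 13.5% of all genes. The tyrosine kinase gene SYK was at 336, 294 and 337 CPM in NT control replicates 1, 2 and 3 and at 251, 275 and 284 CPM in IKZF1-ko replicates 1, 2 and 3. Every IKZF1-ko library was below every NT control library, and groups without overlap in either direction were found for 9.35% of the 13028 tested genes. SYK fell by 0.25 on the log2 scale with the library-set term (SE 0.044, edgeR adjusted p = 0.00102). It passed in 15 of 15 alternatives to that fit. Those without NT control replicate 2 or IKZF1-ko replicate 1 repeat the larger-set comparison. The phosphatase gene PPP1CA fell by 0.17 with the library-set term, with overlapping groups. It did not pass in the larger set (edgeR adjusted p = 0.107) and passed in 8 of 15 alternatives.

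The last list held 24 genes described elsewhere, mostly in lymphoid cells, as bound or regulated by Ikaros or Aiolos. DNTT, IGLL1, VPREB1, DTX1, RAG2, IL2, IL10, HBG1 and HBG2 had 0 counts in all libraries, and 12 genes passed the filter. Of these 4 rose and 1 fell with the library-set term (41.7% called, against 13.5% of all genes). In the larger set 5 rose and 1 fell, where 14.7% of all genes were called. The list medians were 0.09 and 0.15, and whether the list differs from all genes was not tested. TXNIP, an inhibitor of thioredoxin and glucose uptake, was at 161, 802 and 160 CPM in NT control replicates 1, 2 and 3 and at 1123, 239 and 257 CPM in IKZF1-ko. It was thus several times higher in both libraries of the smaller set, and the groups overlapped, while within each set the IKZF1-ko libraries were higher (log2 fold change 0.58, SE 0.049, edgeR adjusted p = 6.85e-07). CDKN1A, an inhibitor of cyclin-dependent kinases, was at 80.4, 30.2 and 76.2 CPM in the NT control libraries and at 14.8, 52.2 and 53.6 CPM in the IKZF1-ko libraries, so that it was lower in the smaller set and, within each set, lower in IKZF1-ko. The receptor tyrosine kinase gene FLT3 (0.24) and the integrin gene ITGA5 (0.23) rose, as did CD44 (0.16), an adhesion receptor gene named after its values were seen. The groups overlapped for FLT3, ITGA5 and CD44, and none of them was called on group alone. ITGA5 did not pass without NT control replicate 3 (edgeR adjusted p = 0.0501). With a surrogate variable 4 of the 12 tested genes of this list were called, where 1047 of all genes were called. In that fit TXNIP stood at 0.26 (edgeR adjusted p = 0.00348) and CDKN1A at -0.45. Without NT control replicate 3 the list had 3 calls, where 1246 of all genes were called. Of the genes named in this and the preceding paragraphs, ITGA5, CD44, CDKN1A, HDAC2, RBBP7, PPP1CA, CRBN, CBL, FIGNL1, ACAD9, AP4B1, KATNIP and SLAIN1 share exon positions with genes on the opposite strand.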

How the data were processed

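Polyadenylated RNA of the 6 libraries was sequenced from a stranded kit, per the labels' protocols. The deposited table gives read counts as whole numbers with no scaling, 1 column per library, matched to samples by the library names in the labels. Per the submitters' processing notes, Trimmomatic, STAR and the build GRCh38 were used. For the counter and its strand setting the sources used here give nothing, so genes sharing exon positions with others are uncertain. The table has 0 columns of other samples. GENCODE release positions were found for 57895 of 58233 identifiers.

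The filterByExpr function kept 13028 genes (12951 in the 4 libraries). Tests used edgeR 4.0.16 in R 4.3.3 (glmQLFit, glmQLFTest, TMM, two-sided, threshold 0.05), adjusted over all tested genes. The library set is the sign of principal component 1 of log2 CPM (prior count 2). SE is the log2 fold change over the root of F. Alternatives used DESeq2 1.42.0, limma 3.58.1 and sva 3.50.0, other scalings and filters, and each library left out. The fits were also run on simulated counts in which the library sets were known, which cannot check p-values for sets found in the same counts. Figures used matplotlib 3.10.9.

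The members, lists, library sets and tests were chosen with earlier results of these data known. Named were the members, genes overlapping them, tested neighbours within 500 kb of IKZF1, the 5 genes most like IKZF1 and 3 most like each other tested member, and per list up to 4 called genes with the lowest adjusted p.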

Additional observations from a re-analysis of the deposited data

How the results depend on the processing

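IKZF1 was higher in IKZF1-ko under all 14 alternatives to the fit on group alone (log2 fold change 0.36 to 0.46, adjusted p 0.032 to 1), all 15 to the library-set fit (0.37 to 0.45, at most 0.00042) and all 11 to the fit on the 4 libraries (0.36 to 0.39, at most 3.27e-07). It passed on group alone only with DESeq2 (0.41, adjusted p = 0.032). Library-set fits without NT control replicate 2 or IKZF1-ko replicate 1 repeat the fit on the 4 libraries and add no separate check. The set term there fits the library left in the smaller set exactly, and IKZF1 stood at 0.37 in both. On group alone the number of genes called was 8 without a filter, 71 with DESeq2, 1 with limma-voom and 0 with any library left out. With the library-set term it was 1159 with DESeq2, 1047 with a surrogate variable, 2942 with a replicate block and 811 to 1943 with a library left out (948 without NT control replicate 1, 811 without IKZF1-ko replicate 3). The replicate block beside the library-set term left almost no degrees of freedom to measure the spread, so its calls are uncertain. In the 4 libraries DESeq2 called 825. The split of calls moved with scaling: upper-quartile scaling gave 1122 higher and 711 lower in the 4 libraries, and with the library-set term RLE scaling gave 841 higher of 1816. The cause of these differences was not tested.

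Same-numbered libraries had deviations from their group means that correlated across genes at -0.66, -0.69 and 0.59. These values follow the library sets: NT control replicate 2 and IKZF1-ko replicate 1, which form the smaller set, correlated at 0.82. The check therefore cannot show whether the replicate numbers pair the samples. The replicate block left IKZF1 at 0.43 in both fits on 6 libraries. In the 4 libraries no block was possible because the groups share only replicate number 3.

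Where a value changed sign, it passed the test neither before nor after the change. IKZF4 ranged from -0.016 to 0.31 on group alone and from -0.13 to 0.26 in the 4 libraries with a library left out, and was lowest without NT control replicate 2 and replicate 1. With the library-set term ITCH ranged from -0.0056 to 0.17, FIGNL1 from -0.0086 to 0.28 and GRB10 from -0.15 to 0.043 with a library left out. FIGNL1 passed under the replicate block alone (0.20, adjusted p = 0.0182), a fit in which the spread is poorly measured. No scaling moved the median of all genes by more than 0.02 on the log2 scale. Depth limits IKZF2 and IKZF3, where a library resolves no level under 3 counts.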

Other observations

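PAX5, which encodes a transcription factor of B-cell identity, made up most of the summed B-cell marker level in these myeloid cells. It was at 11.2, 12.1 and 13.2 CPM in NT control replicates 1, 2 and 3 and at 11.4, 11.7 and 15.1 CPM in IKZF1-ko, with overlapping groups (edgeR adjusted p = 0.813 with the library-set term). The B-cell receptor component gene CD79A had 1 to 13 counts per library, while MS4A1, EBF1, CD22, VPREB1 and IGLL1 had 0. IRF4, a lymphoid gene known to depend on Ikaros and Aiolos in myeloma, had 1 count in each of 2 IKZF1-ko libraries. It had 0 in the other 4. MYC was at 949 ± 94.2 CPM in the controls and 976 ± 28.0 CPM in IKZF1-ko. By replicates 1, 2 and 3 it was at 905, 1057 and 884 CPM in NT control and at 944, 994 and 991 CPM in IKZF1-ko. The groups overlapped, and within the smaller set the IKZF1-ko library was the lower one. MYC passed only in the larger set (log2 fold change 0.15, edgeR adjusted p = 0.0102), where 14.7% of all genes were called. These genes were named after their values were seen.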
